A study of Homo sapiens with 6 samples.

Results

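HMC-1.2 is a human neoplastic mast cell line whose receptor tyrosine kinase KIT carries the activating mutations D816V and V560G, and every sample described here was from it. The cells were cultured for 24 h with 5 µM of the sphingosine kinase 1 inhibitor SKI-178 (SPHK1-I) or with the vehicle, 0.1% DMSO, with 2 samples in each group, numbered 1 and 2. Another group of 2 samples received 50 µM of the sphingosine kinase 2 inhibitor ABC294640 (SPHK2-I) and entered the fit to help estimate the spread. mRNA was measured by qPCR on an array of 84 cell cycle genes, and the comparison of SPHK1-I with vehicle covered all 84 of 84, leaving out 5 housekeeping genes and the wells for genomic DNA, reverse transcription and PCR. The sources used here do not say whether the samples of a group were separate cultures, and p-values here reflect only how far these samples of a group lay apart. The cells are 1 line and not primary mast cells, and the array holds no mast cell marker against which the labelled cell type could be checked.

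Sphingosine kinases phosphorylate sphingosine to sphingosine-1-phosphate, a lipid that acts on cell surface receptors and inside cells, while its precursors ceramide and sphingosine can slow growth. Passage through the cell cycle is driven by cyclin-dependent kinases (CDKs), each active only with a cyclin partner: D cyclins with CDK4 and CDK6 in G1, cyclin E with CDK2 at the G1/S border, and cyclins A and B with CDK1 towards mitosis. G1 kinases phosphorylate the retinoblastoma protein RB, which releases E2F factors to transcribe genes of DNA replication, and CDK inhibitors and DNA damage checkpoints hold these steps back.

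With SPHK1-I, 30 of the 84 genes passed the test at an adjusted p below 0.05 (limma, Benjamini-Hochberg over the 84 genes), 4 higher (4.76%) and 26 lower (31.0%). The 4 that rose were CDK6, CDKN1A, GADD45A and SERTAD1. Those that fell included all 5 genes of replication licensing, 5 of the 8 genes of G1 and the G1/S step, and CDK1. The median log2 change was −0.85 over the 26 lower genes, 1.17 over the 4 higher genes and −0.35 over all 84. In the mean of both samples, 4 genes were more than 1.5-fold higher (4.76%) and 30 more than 1.5-fold lower (35.7%), and 4 of these 34 did not pass the test. Both SPHK1-I samples lay above both vehicle samples in 10 genes (11.9%) and below them in 48 (57.1%), and the groups overlapped in 26. In each of the 30 genes that passed, the samples of the groups did not overlap. The smallest p that an exact permutation of 2 against 2 samples allows is 0.333, so the calls rest on limma, which shares the spread across genes.

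SPHK1-I sample 2 stood apart from the other samples before any gene was compared. A threshold cycle (Ct) is the PCR cycle at which the signal appears, so that 1 cycle later means about 2-fold less template. Over the 84 genes the median was at cycle 27.2 and 27.0 in vehicle samples 1 and 2, 27.6 in SPHK1-I sample 1 and 29.5 in SPHK1-I sample 2. A Ct above 30 was found for 10, 9, 12 and 37 genes in the same order. The wells that test reverse transcription had mean Ct of 24.3, 24.1, 24.1 and 24.4, and the positive PCR wells 21.4, 21.7, 21.5 and 21.4, so neither set was late by as much as the genes. All later values are −ΔCt, a gene's Ct taken from the mean Ct of the reference genes (RPLP0, HPRT1, GAPDH and B2M), on a log2 scale where a higher value means more mRNA relative to these references. The mean Ct of the references was itself late in SPHK1-I sample 2 (24.3 against 22.1 to 22.5 in the other 3), which −ΔCt takes out. Fewer cells, less RNA per cell and other reasons for less template cannot be told apart in such a measure. Why SPHK1-I sample 2 was late, and SPHK1-I sample 1 was not to this extent, was not tested.

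**Figure D1:**
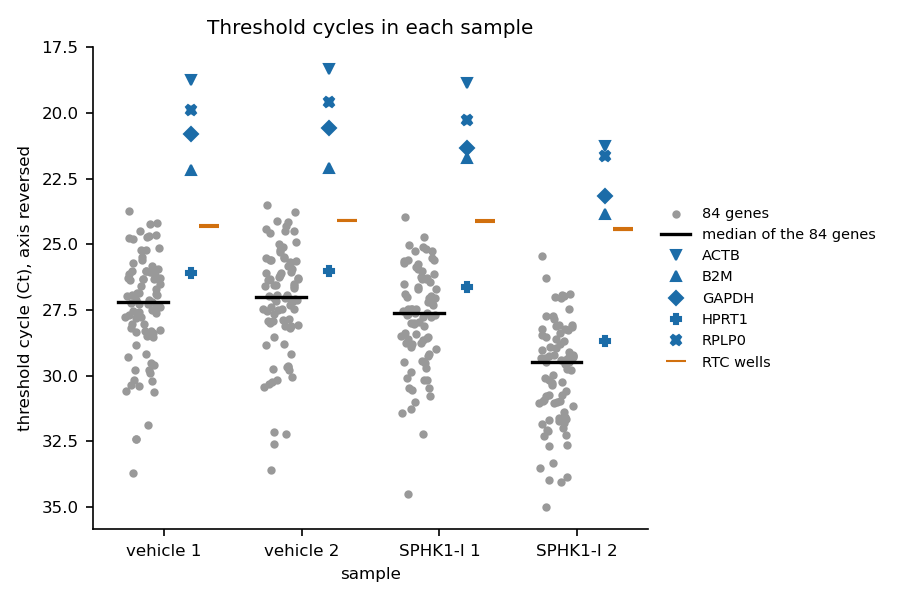
Threshold cycle (vertical axis, reversed so that more mRNA is higher) in each of the 4 samples (horizontal axis), with a grey point for each of the 84 genes, a black line at their median, blue symbols for the 5 housekeeping genes and orange dashes for the reverse transcription control wells (RTC). In SPHK1-I sample 2 the genes and the housekeeping genes sit about 2 cycles later than in the other samples (median Ct 29.5 against 27.0 to 27.6), while the control wells lie between 24.1 and 24.5 throughout.

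The duplicates with SPHK1-I lay further apart than those with vehicle. The log2 difference of sample 2 from sample 1 spread over the genes with an SD of 0.166 in vehicle, 0.484 in SPHK1-I and 0.129 in SPHK2-I. With SPHK1-I its median was −0.33, and 62 of 84 genes were lower in sample 2. In size it was above 0.5 in 32 genes and above 1 in 7. The limma fit took a common spread for each gene in all groups, although the SPHK1-I duplicates lay furthest apart. The median log2 change from the vehicle mean was −0.18 in SPHK1-I sample 1 and −0.58 in SPHK1-I sample 2. Taken singly, sample 1 had 4 genes more than 1.5-fold higher and 19 lower than the vehicle mean, and sample 2 had 7 higher and 41 lower. In both samples alike, 4 genes were past 1.5-fold higher and 19 past it lower, while 17 genes lay on opposite sides of the vehicle mean in the duplicates. CDK5R1 is counted among these 17 and among the 7 higher in sample 2. Its value there is only an upper bound (Ct at the limit of 35).

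**Figure D2:**
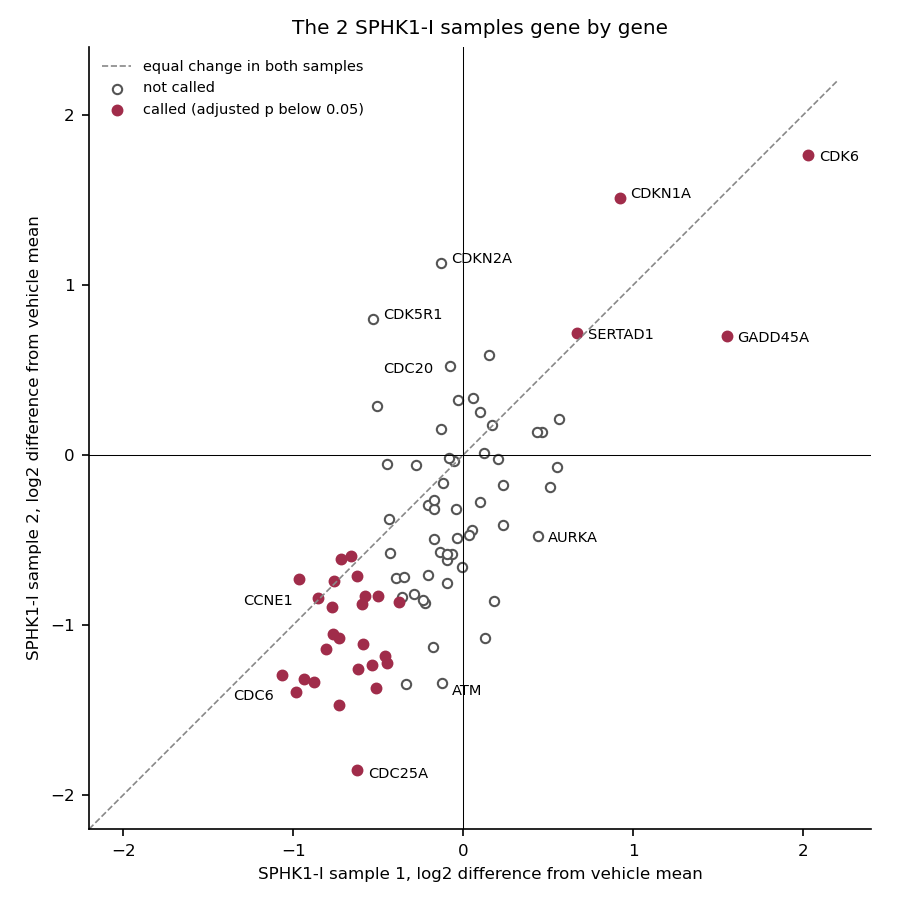
Log2 difference of each of the 84 genes from the vehicle mean in SPHK1-I sample 1 (horizontal axis) and SPHK1-I sample 2 (vertical axis), with filled points for the 30 genes that passed the test and a dashed line where both samples would change equally. CDK6 lies far from zero in both, most points fall below the line since 62 of 84 genes were lower in sample 2, and 17 genes lie to the upper left or lower right of the axes' crossing. CDK5R1 is among these 17, and its sample 2 value is only an upper bound.

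Of the 5 genes with the widest gap between the duplicates, 4 are described here, and they show where sample 2 decided a value. CDK5R1, an activator of CDK5, was at −11.44 and −11.51 with vehicle and at −12.01 and −10.67 with SPHK1-I, and its Ct in sample 2 was at the limit of 35, so that value is only an upper bound. CDKN2A, which encodes the CDK4 and CDK6 inhibitor p16, was at −7.52 and −7.59 with vehicle and at −7.68 and −6.42 with SPHK1-I. CDC25A, a phosphatase that activates CDK2, was at −6.14 and −6.04 with vehicle and at −6.71 and −7.94 with SPHK1-I. Both SPHK1-I samples were below vehicle in CDC25A and lay on either side of it in CDKN2A, while CDK5R1 was below vehicle in sample 1 and cannot be placed in sample 2. The kinase ATM, which responds to DNA breaks, was at −8.36 and −8.00 with vehicle and at −8.30 and −9.52 with SPHK1-I. In ATM, SPHK1-I sample 1 lay within the vehicle range and sample 2 lay 1.16 below the lower vehicle value. Only CDC25A of these 4 passed the test (log2 change −1.24, standard error 0.36, adjusted p = 0.0311 from limma), and its fall was 1.54-fold in sample 1 and 3.61-fold in sample 2. CDC25A was not called when only the vehicle and SPHK1-I samples were fitted (adjusted p = 0.0830 from limma).

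CDK6, the G1 kinase that works with D cyclins, had the largest change on the array and rose in both samples. Its −ΔCt was −10.14 and −10.07 with vehicle and −8.08 and −8.34 with SPHK1-I, so that the lower SPHK1-I value was still well above both vehicle values. The log2 change was 1.90 (95% confidence interval 1.49 to 2.31, adjusted p = 0.000745 from limma), a rise of 3.72-fold, with 4.09-fold in sample 1 and 3.40-fold in sample 2. CDK6 passed the test with each of the 7 references tried. It was measured late (highest Ct 32.7), and without vehicle sample 1 or 2 the change was 1.86 and 1.93 with an adjusted p of 0.0626 and 0.0529.

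Other kinases and cyclins of G1 and the G1/S step moved down. CCNE1, the cyclin E1 partner of CDK2, was at −5.54 and −5.58 with vehicle and at −6.41 and −6.40 with SPHK1-I. CDK2 was at −4.86 and −4.87 with vehicle and at −5.64 and −5.92 with SPHK1-I. CCND3, the D cyclin that fell, was at −1.98 and −2.07 with vehicle and at −2.69 and −2.62 with SPHK1-I. In all of them both SPHK1-I samples lay below both vehicle samples, as in all 26 genes that passed as lower. In CCNE1 and CCND3 the duplicates were within 0.07 of each other. The log2 changes were −0.85 for CCNE1 (standard error 0.15, adjusted p = 0.00729), −0.91 for CDK2 (0.17, 0.00729), −0.83 for CDK4 (0.15, 0.00729) and −0.63 for CCND3 (0.15, 0.0166). CCND1 was at −6.10 and −5.87 with vehicle and at −5.52 and −5.85 with SPHK1-I (change 0.30, adjusted p = 0.234), and CCND2 was at −2.44 and −2.23 with vehicle and at −2.24 and −2.61 with SPHK1-I (change −0.09, adjusted p = 0.729). Of the 8 genes, 1 rose, 5 fell and 2 did not pass, beside 4.76% higher and 31.0% lower over all genes. The median change was −0.73 beside −0.35 over all 84. Among the D cyclins and their kinases, CDK6 thus rose, CDK4 and CCND3 fell, and CCND1 and CCND2 did not pass the test. With GAPDH or RPLP0 alone as reference 0 of the 8 genes were lower, and with HPRT1 alone 1 was. CCNE1 and CDK4 passed with 3 of 7 references and CCND3 with 2. CCND3 was also not called when only the vehicle and SPHK1-I samples were fitted (adjusted p = 0.0567 from limma).

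The genes of replication licensing, which place the MCM helicase on origins of replication in G1, fell together in both samples. MCM4, a helicase subunit, was at −4.94 and −5.01 with vehicle and at −6.04 and −6.27 with SPHK1-I. CDC6, the factor that loads the helicase with the origin recognition complex, was at −4.59 and −4.50 with vehicle and at −5.52 and −5.93 with SPHK1-I. MCM3 was at −3.80 and −3.75 with vehicle and at −4.72 and −5.09 with SPHK1-I. In each the SPHK1-I samples lay at least 0.9 below both vehicle samples. MCM2 was at −3.75 and −3.54 with vehicle and at −4.52 and −4.98 with SPHK1-I, and MCM5 was at −2.95 and −3.06 with vehicle and at −3.76 and −3.75 with SPHK1-I. The log2 changes were −1.19 for CDC6, −1.18 for MCM4, −1.13 for MCM3, −1.10 for MCM2 and −0.75 for MCM5, with standard errors of 0.16 to 0.20 and adjusted p from 0.00603 (MCM4) to 0.0121 (MCM5) in limma. All 5 fell, beside 31.0% of all genes, with a median of −1.13 beside −0.35 over all 84 genes. Their median was −0.94 in sample 1 and −1.32 in sample 2. These 5 stayed called when only the vehicle and SPHK1-I samples were fitted. MCM2, MCM3, MCM4 and CDC6 passed with 6 of 7 references, and MCM5 with 3.

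The promoters of licensing genes are shown because these genes moved together and are textbook targets of E2F factors, with CDK1 as a gene of the later cycle. Each window runs from 250 bases before the RefSeq transcription start to 50 bases after it (GRCh38.p14), 5′ to 3′ on the gene's strand. Capitals mark E2F motif matches (TTTCCCGC, TTTCGCGC, TTTGCCGC or TTTGGCGC on either strand, which may overlap each other) and, in CDK1, the cell cycle homology region motif CHR (TTTGAA on either strand). The windows are chr3:127598161-127598460 on the plus strand for MCM2, chr6:52284693-52284992 on the minus strand for MCM3, chr17:40287629-40287928 on the plus strand for CDC6 and chr10:60778228-60778527 on the plus strand for the second CDK1 start, and MCM4 and MCM5 are named only.
MCM2: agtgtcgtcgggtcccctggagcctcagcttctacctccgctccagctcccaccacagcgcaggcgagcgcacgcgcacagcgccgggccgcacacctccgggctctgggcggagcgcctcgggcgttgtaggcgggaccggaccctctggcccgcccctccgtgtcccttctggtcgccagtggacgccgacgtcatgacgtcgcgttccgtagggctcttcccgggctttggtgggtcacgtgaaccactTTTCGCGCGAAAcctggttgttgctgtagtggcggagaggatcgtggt
MCM3: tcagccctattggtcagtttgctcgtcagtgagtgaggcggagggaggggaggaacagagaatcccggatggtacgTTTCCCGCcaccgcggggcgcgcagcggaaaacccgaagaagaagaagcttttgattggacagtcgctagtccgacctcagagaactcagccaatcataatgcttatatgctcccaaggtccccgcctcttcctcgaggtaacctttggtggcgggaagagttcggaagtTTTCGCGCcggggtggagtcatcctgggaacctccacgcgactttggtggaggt
CDC6: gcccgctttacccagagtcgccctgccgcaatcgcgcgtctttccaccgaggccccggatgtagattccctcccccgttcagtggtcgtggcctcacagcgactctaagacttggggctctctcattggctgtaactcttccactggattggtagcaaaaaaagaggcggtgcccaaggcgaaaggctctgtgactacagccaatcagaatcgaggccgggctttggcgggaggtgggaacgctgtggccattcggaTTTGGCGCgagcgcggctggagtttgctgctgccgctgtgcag
CDK1: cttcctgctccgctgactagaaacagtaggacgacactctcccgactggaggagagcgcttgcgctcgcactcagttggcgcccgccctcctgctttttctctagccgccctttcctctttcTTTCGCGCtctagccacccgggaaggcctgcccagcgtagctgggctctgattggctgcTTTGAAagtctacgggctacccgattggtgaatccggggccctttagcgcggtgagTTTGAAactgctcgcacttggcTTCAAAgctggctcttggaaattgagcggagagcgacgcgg

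In MCM2 the matches begin 3 and 7 bases after the start and overlap each other, in MCM3 they begin at −174 and −4, and in CDC6 at 8. The CDK1 window holds an E2F match from −128 and CHR matches from −69, −13 and 10. Over the array, 68 of the 84 genes had at least 1 such window. An E2F match was found for 6 of the 22 lower genes (27.3%; CDC25A, CDC6, CDK1, MCM2, MCM3 and STMN1), for 0 of the 3 higher genes and for 5 of the 43 that did not pass (11.6%), and in 3.31% of all 35116 RefSeq windows of this length. A CHR match was found for 6 of 22 lower genes (27.3%) and 11 of 43 that did not pass (25.6%), and in 15.2% of all windows. CCAAT, on either strand, was found for 16 of 22 lower genes (72.7%) and 24 of 43 that did not pass (55.8%), and in 34.6% of all windows. Genes with several starts had more than 1 window in which to match, and a match describes these letters only.

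The factors of the RB and E2F step had changes below zero in 7 of 7 genes, as 63 of all 84 genes had, and 1 of 7 fell, beside 31.0% of all genes. RB1, the retinoblastoma gene, was at −4.07 and −3.999 with vehicle and at −4.55 and −5.41 with SPHK1-I, a log2 change of −0.94 (standard error 0.27, adjusted p = 0.0314 from limma). RB1 was not called when only the vehicle and SPHK1-I samples were fitted (adjusted p = 0.0830 from limma). RBL1, which encodes the RB relative p107, was at −5.31 and −5.09 with vehicle and at −5.56 and −6.04 with SPHK1-I (change −0.60, adjusted p = 0.0544). E2F1, an activating E2F factor, was at −5.92 and −5.86 with vehicle and at −6.28 and −6.61 with SPHK1-I (change −0.56, adjusted p just above 0.05). In these 3 genes both SPHK1-I samples lay below both vehicle samples, as in 48 of all 84 genes (57.1%). The lower value was in sample 2 each time. The remaining members had changes of −0.55 (the DP partner TFDP1), −0.33 (RBL2), −0.32 (the repressive E2F4) and −0.05 (TFDP2). The median of the 7 was −0.55, made of −0.24 in sample 1 and −0.72 in sample 2, and with GAPDH, HPRT1 or RPLP0 alone as reference 0 of them passed.

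**Figure D3:**
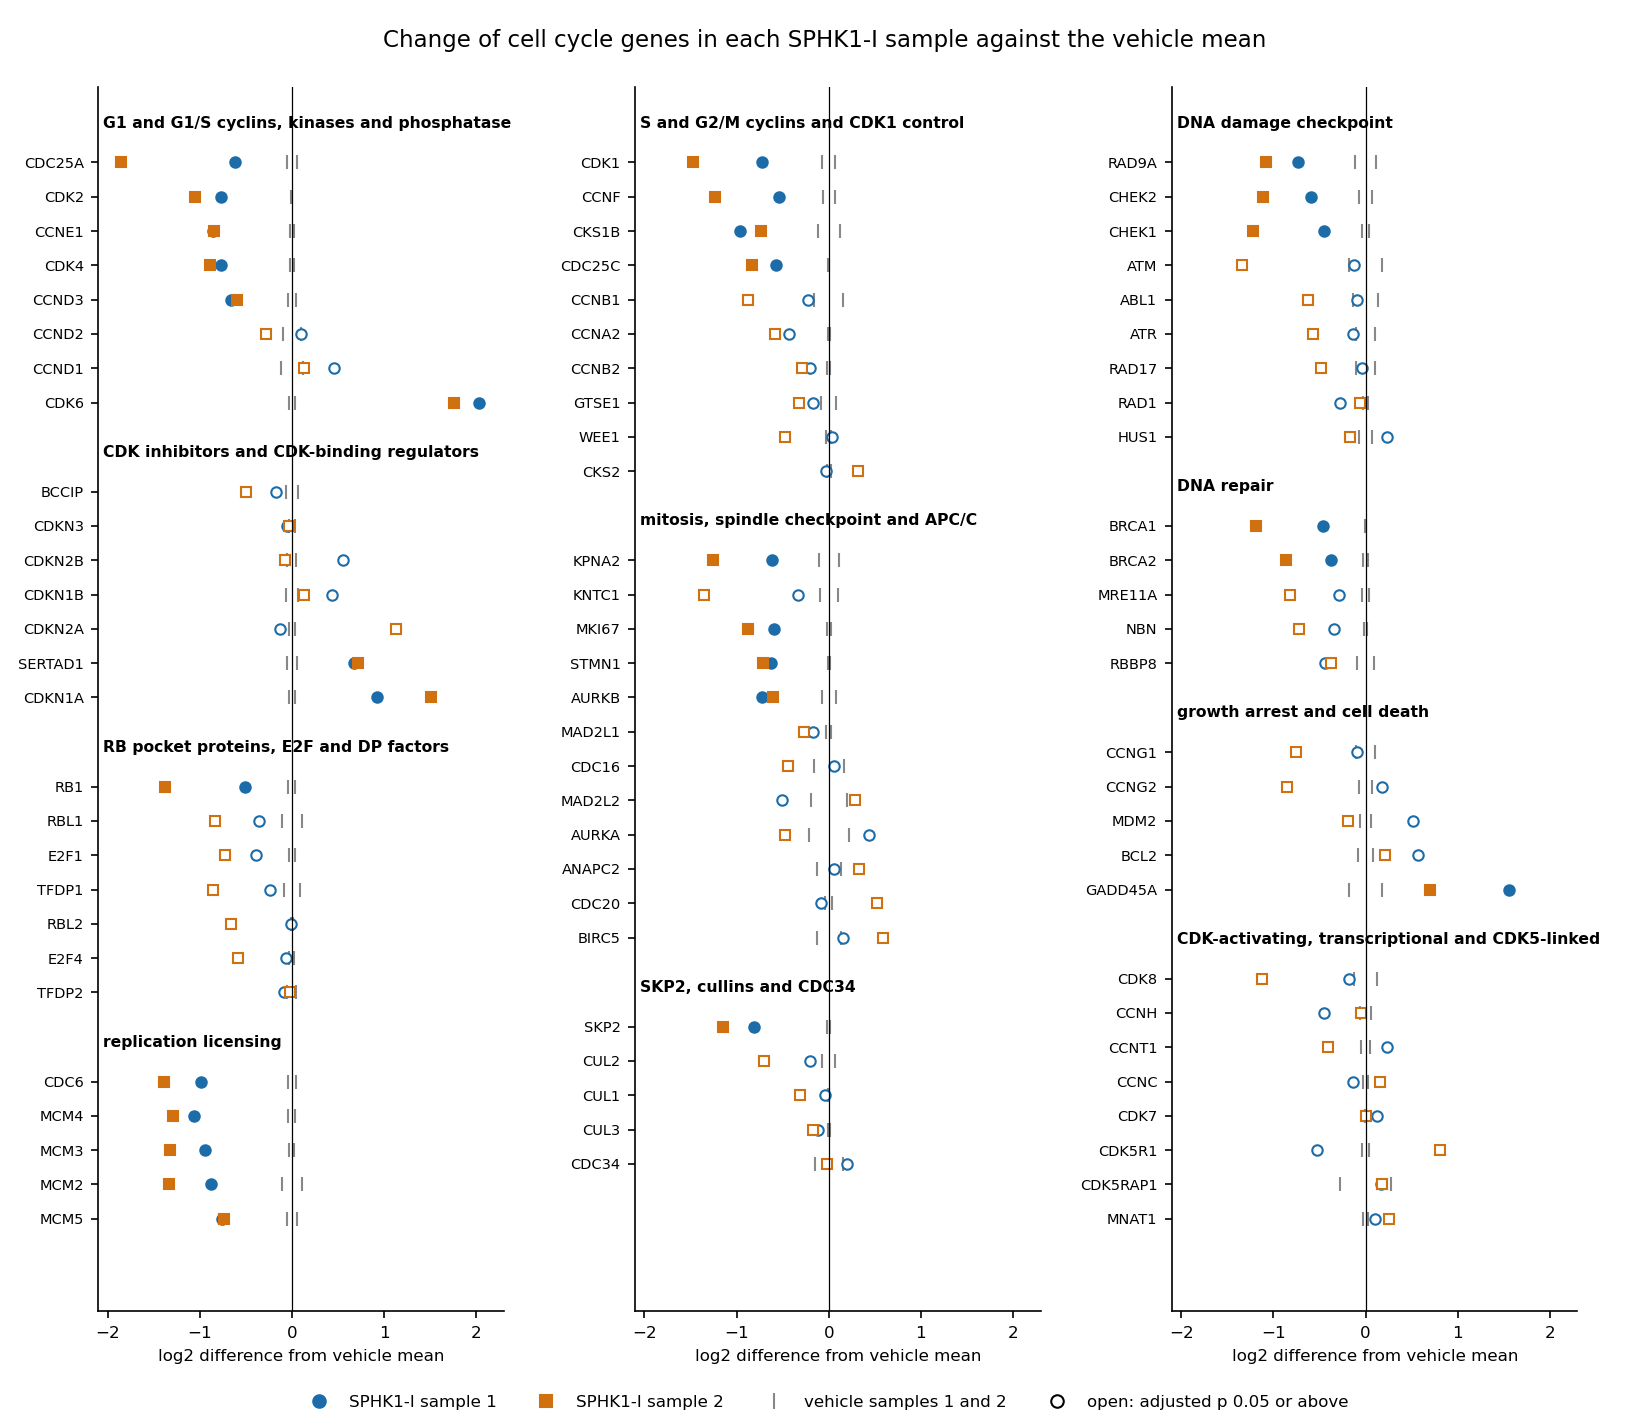
Log2 difference from the vehicle mean (horizontal axis) for 81 of the 84 genes (rows, grouped by role and sorted by mean change), with blue circles for SPHK1-I sample 1, orange squares for SPHK1-I sample 2, filled where the gene passed the test, and grey ticks for the vehicle samples. The licensing genes lie to the left in both samples, with a median change of −1.13, and CDK6 lies far to the right at 1.90.

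Genes that hold CDKs back or bind them rose or did not pass. CDKN1A, which encodes p21, an inhibitor of CDK2 that many stresses induce, was at −3.45 and −3.52 with vehicle and at −2.56 and −1.97 with SPHK1-I. SERTAD1, which encodes a CDK4-binding regulator, was at −5.81 and −5.91 with vehicle and at −5.19 and −5.14 with SPHK1-I. In both genes the SPHK1-I samples lay above the vehicle samples, as in all 4 genes that passed as higher. CDKN1A rose with a log2 change of 1.22 (standard error 0.21, adjusted p = 0.00729 from limma), 1.90-fold in sample 1 and 2.85-fold in sample 2, and SERTAD1 with one of 0.70 (0.15, 0.0128). When only the vehicle and SPHK1-I samples were fitted, CDKN1A passed and SERTAD1 did not (adjusted p = 0.0380 and 0.0556 from limma). BCCIP, which encodes a partner of p21, was at −3.36 and −3.22 with vehicle and at −3.47 and −3.79 with SPHK1-I (change −0.34, adjusted p = 0.199). The other inhibitors had changes of 0.50 (CDKN2A, p16), 0.28 (CDKN1B, p27), 0.24 (CDKN2B, p15) and −0.05 (the phosphatase CDKN3), and none of them passed. Of the 7 genes 2 rose and 0 fell, beside 4.76% higher and 31.0% lower over all genes. Their median was 0.28, beside −0.35 over all 84, and turned to −0.32 with B2M alone as reference.

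Cyclins and regulators of S phase and the G2/M step had 4 of 10 genes lower and 0 higher, beside 31.0% and 4.76% over all genes. CDK1, the mitotic kinase, was at −2.51 and −2.36 with vehicle and at −3.16 and −3.91 with SPHK1-I. CKS1B, a small subunit of CDK complexes, was at −1.94 and −1.70 with vehicle and at −2.78 and −2.55 with SPHK1-I. CDC25C, a phosphatase that activates CDK1, was at −8.35 and −8.36 with vehicle and at −8.93 and −9.19 with SPHK1-I. All 3 had both SPHK1-I samples below both vehicle samples, as had all 26 genes that passed as lower. For CDK1 sample 2 was 0.74 lower than sample 1. The log2 changes were −1.10 for CDK1 (standard error 0.25, adjusted p = 0.0153 from limma), −0.89 for the ubiquitin ligase subunit CCNF (0.24, 0.0246), −0.85 for CKS1B (0.17, 0.0114) and −0.70 for CDC25C (0.16, 0.0153). CDK1, CCNF and CDC25C were no longer called when the SPHK2-I samples were left out of the fit (adjusted p = 0.0556, 0.0703 and 0.0567).

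The cyclins that drive S phase and mitosis did not pass. Cyclin A2 (CCNA2) was at −2.96 and −2.94 with vehicle and at −3.38 and −3.53 with SPHK1-I (change −0.50, adjusted p just above 0.05). Cyclin B1 (CCNB1), the main partner of CDK1 in mitosis, was at −3.77 and −3.45 with vehicle and at −3.83 and −4.48 with SPHK1-I (change −0.55, adjusted p = 0.118). Cyclin B2 (CCNB2) was at −3.57 and −3.60 with vehicle and at −3.79 and −3.88 with SPHK1-I (change −0.25, adjusted p = 0.242, turning to 0.04, 0.04 and 0.10 with ACTB, GAPDH or HPRT1 alone). Their SPHK1-I samples all lay below the vehicle samples, as in 48 of all 84 genes (57.1%). The kinase WEE1, which inhibits CDK1, and the G2 and S phase gene GTSE1 had changes of −0.22 and −0.25, and CKS2 of 0.15.

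In the mitotic group 4 of 12 genes fell and 8 did not pass, a share near the 31.0% lower over all genes. KPNA2, a nuclear import receptor, was at −2.25 and −2.04 with vehicle and at −2.76 and −3.40 with SPHK1-I. MKI67, the proliferation marker Ki-67, was at −2.55 and −2.51 with vehicle and at −3.12 and −3.41 with SPHK1-I. STMN1, which encodes the microtubule regulator stathmin, was at −2.41 and −2.44 with vehicle and at −3.05 and −3.13 with SPHK1-I. AURKB, the kinase of the chromosomal passenger complex, was at −4.35 and −4.20 with vehicle and at −4.99 and −4.88 with SPHK1-I. None of the 4 overlapped with vehicle, as in all 30 genes that passed. Their log2 changes were −0.94 (adjusted p = 0.0192 from limma), −0.73 (0.0153), −0.67 (0.0153) and −0.66 (0.0183). When only the vehicle and SPHK1-I samples were fitted, none of these 4 was called (adjusted p from 0.0556 to 0.0567 in limma). KNTC1, a kinetochore protein, had a change of −0.84 that did not pass (adjusted p = 0.0690), with 1.26-fold in sample 1 and 2.55-fold in sample 2. Of the others that did not pass, survivin (BIRC5) had a change of 0.37, the anaphase-promoting complex activator CDC20 of 0.22 and its subunits ANAPC2 and CDC16 of 0.20 and −0.19. The spindle checkpoint gene MAD2L1 had a change of −0.22, MAD2L2 of −0.11 and Aurora A (AURKA) of −0.02, the last with SPHK1-I samples on both sides of vehicle. The group's median of −0.21 turned to 0.09, 0.09 and 0.14 where the reference was ACTB, GAPDH or HPRT1 by itself, and 0 of the 12 were lower with GAPDH, HPRT1, RPLP0 or the median gene.

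SKP2, the ubiquitin ligase subunit that marks p27 for degradation, was at −5.30 and −5.34 with vehicle and at −6.13 and −6.47 with SPHK1-I. Its groups did not overlap, as in all 30 genes that passed. Its log2 change was −0.98 (standard error 0.18, adjusted p = 0.00729 from limma), 1.75-fold in sample 1 and 2.21-fold in sample 2. The cullins, scaffolds of such ligases, did not pass. CUL2 was at −5.01 and −4.87 with vehicle and at −5.15 and −5.65 with SPHK1-I (change −0.46, adjusted p = 0.120), and CUL1 was at −4.47 and −4.46 with vehicle and at −4.51 and −4.78 with SPHK1-I (change −0.18, adjusted p = 0.406). CUL3 and the ubiquitin-conjugating enzyme CDC34 had changes of −0.14 and 0.09. The median of the 5 was −0.18 and turned above zero, to between 0.02 and 0.17, with ACTB, GAPDH, HPRT1, the median gene or the references without B2M.

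DNA damage checkpoint genes had 3 of 9 lower and 0 higher, a share near the 31.0% lower over all genes. RAD9A, a subunit of the 9-1-1 clamp that is loaded at damaged DNA, was at −7.36 and −7.12 with vehicle and at −7.97 and −8.32 with SPHK1-I. CHEK2, the checkpoint kinase CHK2 that ATM activates, was at −6.26 and −6.12 with vehicle and at −6.78 and −7.30 with SPHK1-I. CHEK1, the kinase CHK1 that ATR activates, was at −5.52 and −5.44 with vehicle and at −5.93 and −6.70 with SPHK1-I. In each, both SPHK1-I samples lay below both vehicle samples, as in all 26 genes that passed as lower. The log2 changes were −0.90 for RAD9A (standard error 0.19, adjusted p = 0.0114 from limma), −0.85 for CHEK2 (0.20, 0.0166) and −0.84 for CHEK1 (0.25, 0.0352). The fall of CHEK1 was 1.37-fold in sample 1 and 2.33-fold in sample 2, and that of CHEK2 1.502-fold and 2.16-fold. With only the vehicle and SPHK1-I samples fitted, CHEK2 and CHEK1 were not called (adjusted p = 0.0567 and 0.0923 from limma), and RAD9A was (0.0459). ATM and ATR, the kinases upstream of CHK2 and CHK1, had changes of −0.73 (adjusted p = 0.159) and −0.35, and ABL1, a kinase that ATM activates, of −0.36, none past the test. The other clamp subunits RAD1 and HUS1 had changes of −0.17 and 0.03, and the clamp loader RAD17 of −0.26. The median of the 9 was −0.36, beside −0.35 over all 84 genes, and 0 of the 9 passed with GAPDH, HPRT1 or RPLP0 alone as reference. RAD9A was measured late (highest Ct 32.6), and with Ct limited to 30 its value was 0.64, a sign set by the limit.

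All 6 DNA repair genes had changes below zero, as 63 of all 84 genes had, and 3 fell, beside 31.0% of all genes. BRCA1, which acts in the choice and course of double-strand break repair, was at −5.44 and −5.46 with vehicle and at −5.91 and −6.63 with SPHK1-I. BRCA2, a mediator of homologous recombination, was at −8.16 and −8.11 with vehicle and at −8.51 and −9.00 with SPHK1-I. In both genes the SPHK1-I samples lay below the vehicle samples, with sample 2 the lower. The log2 changes were −0.82 for BRCA1 (standard error 0.24, adjusted p = 0.0323 from limma), 1.38-fold in sample 1 and 2.27-fold in sample 2, and −0.62 for BRCA2 (0.20, 0.0444), 1.30-fold and 1.82-fold. BRCA2 was measured late (highest Ct 33.3), and neither was called when the SPHK2-I samples were left out of the fit (adjusted p = 0.0868 and 0.101). NBN and MRE11A (now MRE11), which belong to the complex that binds broken ends, had changes of −0.53 (adjusted p = 0.0510) and −0.55 (0.0800), and RBBP8, which helps to resect the ends, of −0.41 (0.0798). Both SPHK1-I samples lay below both vehicle samples in 6 of 6 genes, beside 48 of all 84 (57.1%). The median was −0.59, made of −0.41 in sample 1 and −0.82 in sample 2, and with ACTB alone as reference 1 gene was lower, with GAPDH, HPRT1 or RPLP0 alone 0.

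Among 7 genes of growth arrest and cell death, GADD45A rose and the others did not pass. Over all genes 4.76% were higher and 31.0% lower. GADD45A, a stress gene that slows growth after DNA damage, was at −10.17 and −10.52 with vehicle and at −8.79 and −9.65 with SPHK1-I. The lower SPHK1-I value lay 0.53 above the higher vehicle value, and the log2 change was 1.13 (standard error 0.29, adjusted p = 0.0195 from limma), 2.93-fold in sample 1 and 1.62-fold in sample 2. It was measured late (highest Ct 34.0). GADD45A was not called when only the vehicle and SPHK1-I samples were fitted (adjusted p = 0.0589 from limma). BCL2, which protects from apoptosis, was at −8.09 and −8.26 with vehicle and at −7.61 and −7.96 with SPHK1-I (change 0.39, adjusted p = 0.132). CCNG1, which encodes the damage-linked cyclin G1, was at −4.04 and −4.25 with vehicle and at −4.24 and −4.89 with SPHK1-I (change −0.42, adjusted p = 0.199). MDM2, an E3 ubiquitin ligase, had a change of 0.16 and CCNG2 of −0.34. The duplicates parted most in this group, with a median change of 0.18 in sample 1 and −0.58 in sample 2, and the median of −0.34 turned to 0.01 with HPRT1 alone as reference.

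None of the 8 genes of CDK activation, transcription and CDK5 passed, beside 4.76% higher and 31.0% lower over all genes. Their median change was 0.04, or −0.57 with B2M alone as reference. CDK8, a kinase of the Mediator complex, was at −6.05 and −5.79 with vehicle and at −6.10 and −7.05 with SPHK1-I (change −0.65, adjusted p = 0.125). CCNH and MNAT1 form the CDK-activating kinase with CDK7. CCNH was at −4.60 and −4.47 with vehicle and at −4.98 and −4.59 with SPHK1-I (change −0.25, adjusted p = 0.306), and MNAT1 was at −5.35 and −5.42 with vehicle and at −5.29 and −5.13 with SPHK1-I (change 0.18, adjusted p = 0.402). CDK7 was at 0.07, and CCNC, CCNT1 and CDK5RAP1 at 0.01, −0.09 and 0.17.

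How many genes passed depended on the reference genes. Against the mean of the 4 references, B2M was 0.61 higher with SPHK1-I (0.74 and 0.48 in samples 1 and 2). GAPDH was at −0.29 (−0.30 and −0.29) and HPRT1 at −0.35 (−0.25 and −0.45). RPLP0 was at 0.04 in the mean, but at −0.19 in sample 1 and 0.26 in sample 2. ACTB, which is not in the reference, was at −0.29 (−0.02 and −0.57). The counts higher and lower were 9 and 15 with ACTB alone, 3 and 67 with B2M alone, 4 and 4 with GAPDH alone, 7 and 7 with HPRT1 alone, 1 and 0 with RPLP0 alone, and 4 and 11 with the median of the 84 genes. The median change of all genes moved from −0.35 to −0.05, −0.95, −0.05, 0.00334, −0.38 and −0.15 in the same order, so changes are to be read relative to that shift. With all 5 housekeeping genes they were 4 and 30. All 30 called genes kept their sign with each of these 7 references. A change of reference moves every gene by the same amount, at most 0.35 up (HPRT1) and 0.61 down (B2M). The called changes nearest zero were −0.62 and 0.70, so no sign could turn. CDK6 passed in 7 of 7, CDC6, CDKN1A, GADD45A, MCM2, MCM3 and MCM4 in 6, and CDK2, SERTAD1 and SKP2 in 5.

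**Figure D4:**
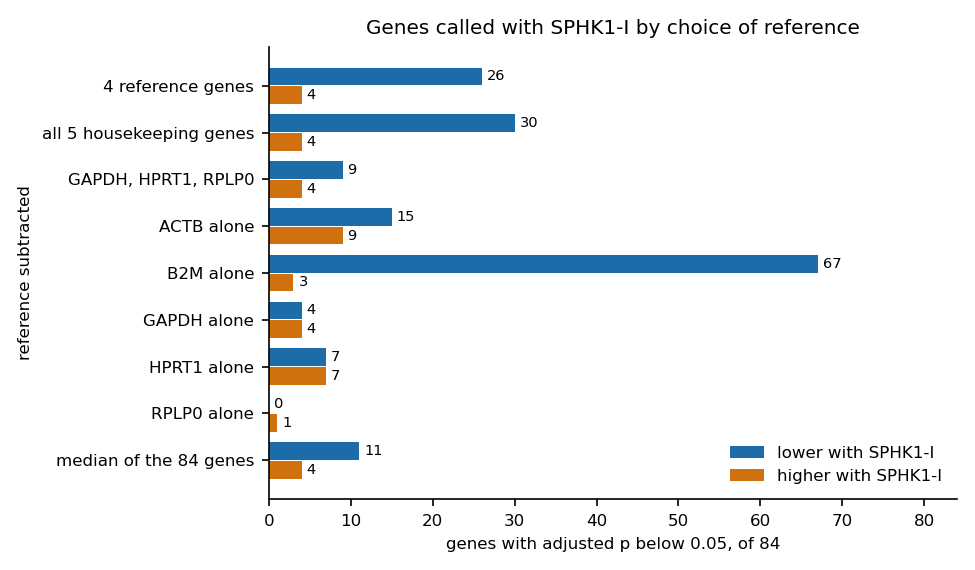
Number of genes past the test (horizontal axis, of 84) for each choice of reference (vertical axis), with blue bars for lower and orange bars for higher with SPHK1-I. The lower genes range from 0 with RPLP0 alone to 67 with B2M alone, against 26 with the 4 reference genes.

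The calls also depended on single samples. Without vehicle sample 1 or vehicle sample 2, limma called 0 genes (25 and 22 at an unadjusted p below 0.05), although 37 and 32 genes were still past 1.5-fold. Without SPHK1-I sample 1 it called 10 higher and 54 lower, and without SPHK1-I sample 2, the sample with late Ct, 10 higher and 35 lower, in both cases with the remaining sample assumed to vary like the other groups. With only the 4 vehicle and SPHK1-I samples, or without either SPHK2-I sample, 2 genes were higher and 11 lower. In the fit of 4 samples these were CDK6 and CDKN1A as higher, and CCNE1, CDK2, CDK4, MCM2, MCM3, MCM4, MCM5, CDC6, CKS1B, SKP2 and RAD9A as lower.

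Set beside 50 µM SPHK2-I, a different dose, 26 genes differed between the inhibitors, 13 higher with SPHK1-I (15.5%) and 13 lower (15.5%) in the same limma fit. Both inhibitors are compared with the same vehicle samples. Of the 26 genes lower and 4 higher with SPHK1-I than vehicle, 8 and 2 differed between the inhibitors. Among these CDK6 had log2 changes of 1.90 with SPHK1-I and 0.80 with SPHK2-I (difference 1.10, adjusted p = 0.00930), CDKN1A of 1.22 and 0.08 (1.13, 0.0113), CDC6 of −1.19 and −0.19 (−0.996, 0.0113) and RAD9A of −0.90 and 0.20 (−1.11, 0.0103). Other genes had changes, with SPHK1-I and SPHK2-I in turn, of −1.24 and −1.31 for CDC25A, −1.10 and −1.13 for CDK1, −0.98 and −1.13 for SKP2 and −0.91 and −0.82 for CDK2, and these differences did not pass (adjusted p from 0.562 to 0.933, with 95% confidence intervals that reach from −0.76 to 0.91 for CDC25A and from −0.27 to 0.57 for SKP2). In the licensing list 4 of 5 genes were lower with SPHK1-I than with SPHK2-I, and in the lists of RB and E2F factors, SKP2 and cullins, and CDK activation 0 differed. The largest difference on the array was that of BIRC5, 1.59 higher with SPHK1-I (adjusted p = 0.00652). Most of this gap came from SPHK2-I, where BIRC5 lay at −1.22 from vehicle and passed in the limma fit (adjusted p = 0.00687). Its SPHK1-I change of 0.37 did not pass. Of the 26 differing genes, 16 had not passed between SPHK1-I and vehicle. Without either vehicle or either SPHK2-I sample the count of differing genes was 0, and with RPLP0 alone as reference it was 3.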

How the data were processed

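Total RNA of HMC-1.2 cells was converted to cDNA with the RT2 First-Strand Kit and measured on the RT2 Profiler human cell cycle array with SYBR detection. The authors deposited Ct values averaged per gene and sample on a log2 scale, none above 35, and ΔCt values, which are also log2, made with the maker's web tool (version not given in the sources used here). The ΔCt of B2M, GAPDH, HPRT1 and RPLP0 summed to 0 within 1e-06 in each sample, so these were the authors' reference. Deposited columns of fold change and signed fold change with the inhibitors hold the authors' own comparisons and were not used.

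Changes are differences in mean −ΔCt, tested with limma 3.58.1 in R 4.3.3 (3 group means over all 6 samples, degrees of freedom 3 residual and 4.33 prior, SD of the prior 0.191), with Benjamini-Hochberg adjustment over the 84 genes and no replicate block. The methods of the study name a t-test, which was run as an alternative. The code was tested on simulated data. The genes were divided into 11 lists by role, and the values in every sample are given for the 12 called genes with the largest change, up to 3 genes of each list with the smallest p, cyclins and DNA damage genes that the paper discusses, and the 5 genes with the widest gap between SPHK1-I samples. The members, lists and this rule were chosen with earlier results of these data known. Results of 3 genes are counted in the totals and not reported here.

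Symbols were matched by RefSeq accession (84 of 84, with 1 renamed). Promoter sequences are from RefSeq, build GRCh38.p14. The alternatives were other references, Ct limited to 30, genes at Ct 35 left out, each sample left out, only the 4 samples compared, a replicate block, limma with trend and robust settings, a weight per sample and the methods' t-test. Same-numbered samples did not deviate together (correlations of −0.258, −0.105 and −0.041 between groups across genes), and were not treated as pairs. No depth applies to qPCR, and 2 samples per group limit the precision.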

Additional observations from a re-analysis of the deposited data

How the results depend on the processing

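The 30 calls kept their sign with every reference tried, since each moves all genes alike and by less than any called change. The number of calls did not hold. The counts of genes higher and lower with SPHK1-I (4 and 26) became 9 and 15 with ACTB alone, 3 and 67 with B2M alone, 4 and 4 with GAPDH alone, 7 and 7 with HPRT1 alone, 1 and 0 with RPLP0 alone, 4 and 11 with the median gene, 2 and 13 with Ct limited to 30 (75 genes), 2 and 11 with only the 4 samples, and 4 and 9 without B2M in the reference. The limit at Ct 30 left out genes that reached it in every sample. CDK6, GADD45A, CDC25C and BRCA2, called in the main fit, were among them and were not tested under it. The methods' t-test gave 0 and 0 after Benjamini-Hochberg and 2 and 19 unadjusted. Leaving out each sample gave 0 to 10 higher, 0 to 54 lower, 23 to 48 genes past 1.5-fold, a median change of −0.58 to −0.18 and 0 to 61 genes that differed between the inhibitors. Genes past 1.5-fold (34) numbered 20, 66, 20 and 19 with ACTB, B2M, GAPDH or HPRT1 alone. The median change of the 84 genes (−0.35) was −0.0516, −0.95 and −0.0520 with ACTB, B2M or GAPDH alone and turned to 0.0033 with HPRT1 alone. The 26 genes that differed between the inhibitors became 40 with ACTB alone, 3 with RPLP0 alone, 14 with the replicate block and 16 with a weight per sample (0.286 for SPHK1-I, 1.96 for vehicle, 1.79 for SPHK2-I). With the replicate block 4 genes were higher and 27 lower than vehicle, and no call of a named gene changed. With the numbers crossed as pairs in a fit of only the 4 samples the counts were 4 and 29, against 2 and 11 in these samples with no block. Leaving B2M out of the reference and crossing the numbers were added after seeing the data.

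Some genes that did not pass the test turned sign, namely CCNB2 (0.0430), CCND2 (0.21), CCNH (0.0443) and CUL1 (0.12) with ACTB alone and the same genes (0.0425, 0.21, 0.0438 and 0.12) with GAPDH alone, and CCNB2 (0.10), CCND2 (0.26), CCNH (0.10), CUL1 (0.17) and BCCIP (0.0140) with HPRT1 alone. BCL2 (−0.22), CCND1 (−0.31), CDK5R1 (−0.47), CDKN2A (−0.11) and MNAT1 (−0.43) turned with B2M alone, and CCND2 (0.11) and CUL1 (0.0193 and 0.0243) with the median gene and without B2M. Over the samples left out in turn, CCND2 ranged from −0.28 to 0.10 and CDKN2A from −0.13 to 1.13, both turning without SPHK1-I sample 2, and CCND2 also without vehicle sample 2. CDK5R1 ranged from −0.53 to 0.80, but the sample behind the latter is at the Ct limit of 35, so 0.80 is an upper bound and the sign of its change is not known. With Ct limited to 30, CDK8 (0.0375) and RAD9A (0.64), which had passed as lower, turned through values set to the limit. The causes were not tested.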
